A study of Homo sapiens with 8 samples.

Results

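The genes described here encode enzymes that modify transfer RNA (tRNA), together with some of their partner subunits and with N6AMT1, a methyltransferase that shares a partner with several of them. The list held 34 genes of 63677 in each deposited count table, and all 34 symbols were found there. N6AMT1 heads the list and was chosen by its measured fold change with ACBI-1, so its values are given as a description with no p-value. The other members were listed by function, but with earlier results of these data known. The transcriptomes came from the established T-ALL lines DND-41 and MOLT-4 (T-ALL is acute lymphoblastic leukaemia of the T lineage). Each line received 100 nM ACBI-1 or DMSO, its solvent, for 3 h, which gave 4 groups of 2 libraries: DND-41 with ACBI-1, DND-41 with DMSO, MOLT-4 with ACBI-1 and MOLT-4 with DMSO. ACBI-1 is a degrader that recruits the VHL ubiquitin ligase to SMARCA2, SMARCA4 and PBRM1, subunits of SWI/SNF chromatin remodelling complexes. No other genotype or agent is named in the labels, and each line stands for 1 leukaemia only.

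Transfer RNAs carry chemical marks on their bases and sugars that are added after transcription. Marks at and beside the anticodon tune how a codon is read, and marks in the body of the molecule hold its fold and protect it from decay. Many of the enzymes work as pairs in which a catalytic subunit needs a partner for binding or stability. TRMT112 is such a partner, and activates several otherwise unrelated methyltransferases, N6AMT1 among them. N6AMT1 (also HEMK2 or KMT9 alpha) methylates a glutamine of the translation termination factor eRF1 and a lysine of histone H4, and is not known as a tRNA-modifying enzyme itself.

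Each library held between 19867779 and 20082524 counted reads. The 2 ACBI-1 libraries of DND-41 were the least alike pair of replicates, with a chi-square per gene of 17.2 against 3.19 to 5.58 for the other pairs, and mitochondrial genes took 17.4% and 13.3% of their reads. The line labels were checked by marker genes: TLX3 lay at 226 to 373 CPM (reads scaled to a common library size) in DND-41 libraries and at most 0.462 CPM in MOLT-4 libraries, and TAL1 at 37.3 to 40.1 CPM in MOLT-4 libraries and at most 0.199 CPM in DND-41 libraries. The 8 T-lineage markers summed to 4610 to 4670 CPM in DND-41 and 2420 to 2540 CPM in MOLT-4, but they did not all run that way. In DMSO 3 of them were higher in DND-41 and 4 lower (edgeR, adjusted p under 0.05), beside 31.6% and 32.8% of all genes. CD7 lay at 1970 to 2250 CPM in DND-41 and 77.4 to 94.6 CPM in MOLT-4. CD5 lay at 1.13 to 2.18 CPM in DND-41 and 103 to 158 CPM in MOLT-4. The 5 myeloid and erythroid markers summed to at most 0.362 CPM in any library. The 5 B-lineage markers summed to 1520 to 1760 CPM in DND-41 and to 10.5 to 17.4 CPM in MOLT-4, and the 6 epithelial and fibroblast markers to 33.4 to 57.7 CPM in DND-41 and 3.86 to 4.6 CPM in MOLT-4. Of 35 genes read almost only in MOLT-4, DND-41 DMSO replicate 2 held 0.763% of the MOLT-4 level in sum, against 0.133% to 0.182% in the other DND-41 libraries.

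N6AMT1 (ENSG00000156239) had about 2 times as many reads with ACBI-1 as with DMSO in DND-41, and somewhat less than that in MOLT-4. It had 383 and 450 reads in the ACBI-1 libraries of DND-41, against 191 and 215 reads in the DMSO libraries. In MOLT-4 it had 407 and 479 reads with ACBI-1, against 230 and 274 reads with DMSO. The treated libraries lay above the DMSO libraries of the same line without overlap in both lines. The log2 fold change (ACBI-1 over DMSO) was 1.03 ± 0.11 (SE) in DND-41 and 0.79 ± 0.11 in MOLT-4, from edgeR fits of 2 against 2 libraries. Its lowest value under any alternative run, leaving out each library included, was 0.92 in DND-41 and 0.66 in MOLT-4. The difference between these responses was 0.22 ± 0.17. In DMSO, N6AMT1 stood lower in DND-41 than in MOLT-4, at 10.0 ± 0.897 CPM against 13.0 ± 1.63 CPM (SD, n = 2 libraries each).

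**Figure D1:**
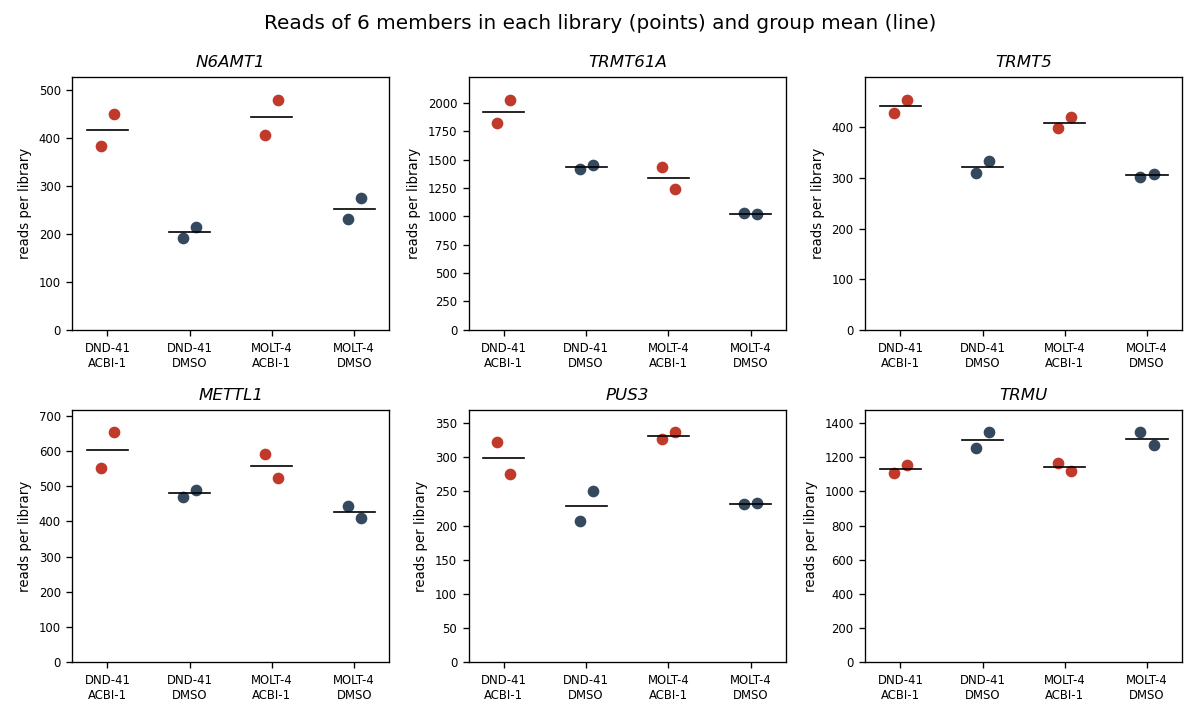
Reads per library (vertical axes, from 0) of 6 members in the 4 groups of 2 libraries. Points are libraries and lines are group means; the ACBI-1 libraries lie above the DMSO libraries of their line for N6AMT1, TRMT61A, TRMT5, METTL1 and PUS3, and below them for TRMU.

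TRMT112 (ENSG00000173113), the activating partner of N6AMT1, ALKBH8 and TRMT11, was not called in either line. It had 1526 and 1451 reads with ACBI-1 against 1401 and 1411 reads with DMSO in DND-41, and 1673 and 1566 reads with ACBI-1 against 1549 and 1634 reads with DMSO in MOLT-4. Its log2 fold change was 0.07 ± 0.07 in DND-41 (95% interval -0.07 to 0.22) and -0.004 ± 0.07 in MOLT-4 (-0.14 to 0.13). TRMT112 shares 17.5% of its exon bases with ESRRA on the other strand, and the strand setting of the counting is not given in the sources used here. TRMT112, the methyltransferases it binds and ETF1, which encodes eRF1, made a list of 9 genes. Apart from N6AMT1, for which no p is used, none of these genes was called in either line. ETF1 had a log2 fold change of -0.03 ± 0.07 in DND-41 and -0.0049 ± 0.06 in MOLT-4, and the ribosomal RNA methyltransferase gene METTL5 had 0.06 ± 0.08 in DND-41 and 0.10 ± 0.09 in MOLT-4. ALKBH8, which finishes a wobble uridine side chain with TRMT112, had 0.25 ± 0.10 in DND-41 and 0.19 ± 0.11 in MOLT-4, again not called. LTN1 and RWDD2B, the next 2 protein-coding genes on one side of N6AMT1, were not called either. LTN1 had 0.14 ± 0.09 in DND-41 and 0.15 ± 0.08 in MOLT-4, and RWDD2B had -0.08 ± 0.12 in DND-41 and -0.17 ± 0.11 in MOLT-4. The nearest protein-coding gene on the other side, ADAMTS5, had 0 reads in all 8 libraries and was not tested.

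A gene was called where the adjusted p of edgeR's quasi-likelihood test, with Benjamini-Hochberg adjustment over all genes tested, was under 0.05. By that rule, and leaving out N6AMT1, 6 of 32 members tested were higher with ACBI-1 in DND-41 and 0 were lower. Among all 14019 genes tested in that line 3.78% were called higher, 6.05% lower and 9.83% either way. In MOLT-4 6 of 33 members were higher and 1 was lower, again without N6AMT1, beside 3.9% higher, 6.94% lower and 10.8% either way among 14470 genes. The median log2 fold change of the members was 0.13 in each line, against 0.0029 for all genes tested in DND-41 and -0.00097 in MOLT-4. Values lay above 0 for 28 of these 32 members in DND-41 and for 26 of 33 in MOLT-4, beside 50.6% and 49.8% of all genes. ACBI-1 libraries lay wholly above DMSO libraries, in CPM, for 18 of these members in DND-41 (21.4% of all genes) and 20 in MOLT-4 (26% of all genes). They lay wholly below for 2 in DND-41 (27.5% of all genes) and 3 in MOLT-4 (24.9% of all genes). TRMT61A, TRMT5, METTL1 and PUS3 were called in both lines, 66.7% of the 6 higher calls of each line, and 1.6% of the 12968 genes tested in both lines were called higher in both. No member was called lower in both, beside 3.32% of those genes. The list was proposed with these contrasts known, so nothing is read from the counts. Without N6AMT1, DESeq2 on all libraries called 3 members higher in DND-41 and 2 in MOLT-4, and 0 lower in either line. Among all genes tested it called 201 higher and 411 lower in DND-41, and 222 higher and 467 lower in MOLT-4. Fewer members were called with edgeR when a library was left out, which leaves 1 library in its group. Without an ACBI-1 library most calls among all genes were lost as well, and in MOLT-4 all of them. The loss of a member's call in those runs is therefore not read as a trait of that member. With no filter on low counts no member was called in either line (edgeR; 13 members had an unadjusted p under 0.05 in each). That fit called only 2 of all genes in DND-41 and 39 in MOLT-4.

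**Figure D2:**
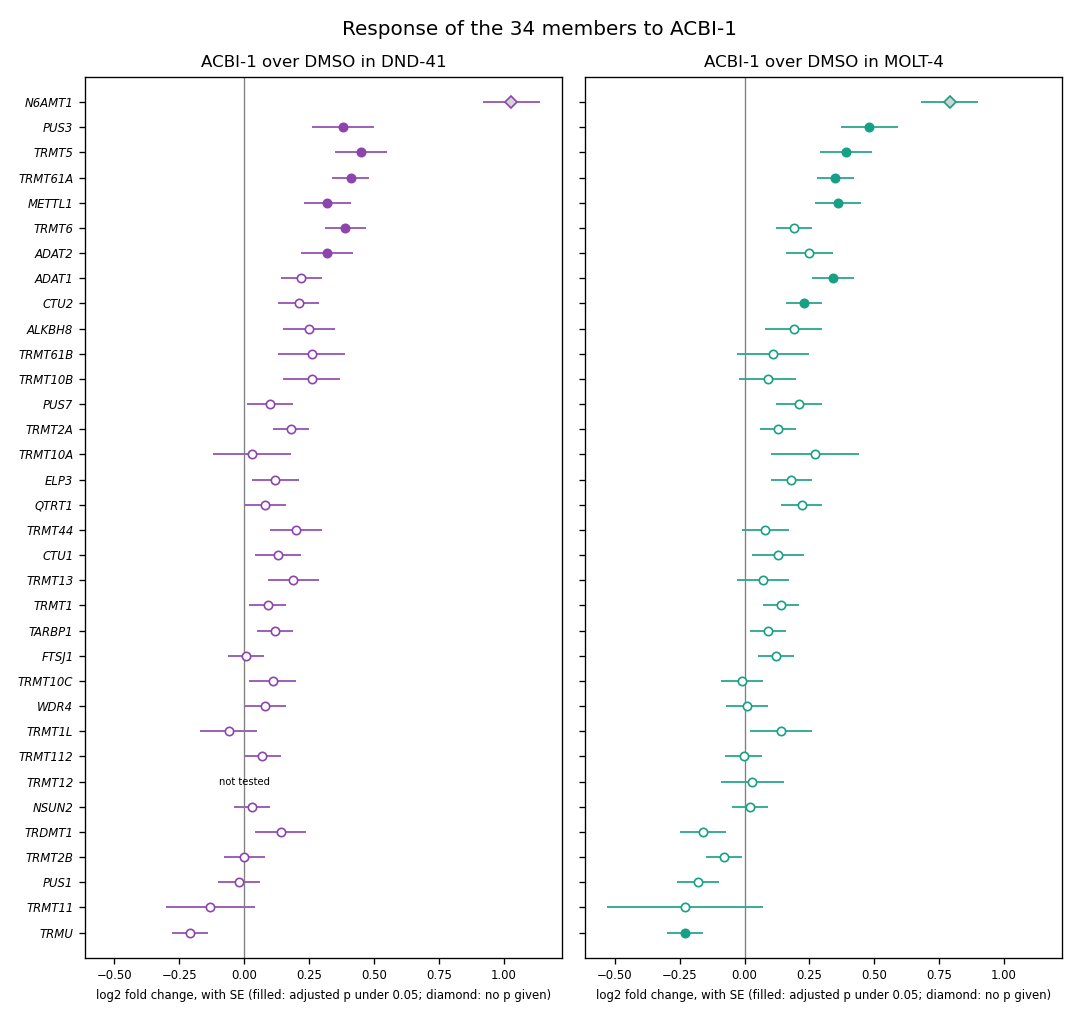
Log2 fold change of ACBI-1 over DMSO (horizontal axes) of the 34 members in DND-41 (left) and MOLT-4 (right), with its SE. Filled points passed an adjusted p of 0.05 (edgeR), open points did not, and N6AMT1 is drawn as a diamond since no p is given for it; it lies farthest right in both lines, at 1.03 and 0.79.

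TRMT61A and TRMT6 encode the catalytic and the RNA-binding subunit of the nuclear enzyme that sets 1-methyladenosine in the T loop of tRNA. TRMT61A (ENSG00000166166) had 1821 and 2025 reads with ACBI-1 against 1420 and 1448 reads with DMSO in DND-41. In MOLT-4 it had 1433 and 1239 reads with ACBI-1 against 1025 and 1023 reads with DMSO. The groups did not overlap in either line, and TRMT61A rose by a log2 fold change of 0.41 ± 0.07 in DND-41 (edgeR, adjusted p = 1.07e-04) and 0.35 ± 0.07 in MOLT-4 (adjusted p = 0.00146). TRMT6 (ENSG00000089195) had 1174 and 1188 reads with ACBI-1 against 893 and 902 reads with DMSO in DND-41, and 1025 and 1050 reads against 907 and 881 reads in MOLT-4. TRMT6 was also higher in every treated library, and it rose in DND-41 (0.39 ± 0.08, edgeR adjusted p = 5.31e-04). In MOLT-4 it had 0.19 ± 0.07 (adjusted p = 0.103) and was not called. The difference between its responses was 0.18 ± 0.10 (adjusted p = 0.730), so the lines were not shown to differ in it. The calls of both genes in DND-41, and of TRMT61A in MOLT-4, held with DESeq2 and without either DMSO library. Without 1 library TRMT61A ranged from 0.35 to 0.47 in DND-41 and from 0.26 to 0.45 in MOLT-4, and TRMT6 from 0.37 to 0.40 in DND-41. TRMT61B, the mitochondrial relative of TRMT61A, had 0.26 ± 0.13 in DND-41 and 0.11 ± 0.14 in MOLT-4, and was not called.

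Promoter sequences of members that moved together are given from the RefSeq table of the build GRCh38.p14, from 250 bases before to 50 bases after the start of each gene, written 5′ to 3′ on the strand of the gene. The table held such a window for 27 of the 34 members. TRMT61A (chr14:103528946-103529245, plus strand) and TRMT6 (chr20:5950484-5950783, minus strand) are shown because both subunits of one enzyme were called in DND-41. TRMT5 (chr14:60981641-60981940, minus strand) and PUS3 (chr11:125903157-125903456, minus strand) are shown as members called in both lines. Capitals mark CACGTG, the palindromic E-box bound by MYC, USF and related factors.
TRMT61A: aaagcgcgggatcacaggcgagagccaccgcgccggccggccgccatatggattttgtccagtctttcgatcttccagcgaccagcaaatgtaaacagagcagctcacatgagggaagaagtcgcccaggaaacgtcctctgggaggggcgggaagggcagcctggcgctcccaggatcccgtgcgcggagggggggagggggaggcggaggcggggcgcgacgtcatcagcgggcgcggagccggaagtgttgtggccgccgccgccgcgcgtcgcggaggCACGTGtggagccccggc
TRMT6: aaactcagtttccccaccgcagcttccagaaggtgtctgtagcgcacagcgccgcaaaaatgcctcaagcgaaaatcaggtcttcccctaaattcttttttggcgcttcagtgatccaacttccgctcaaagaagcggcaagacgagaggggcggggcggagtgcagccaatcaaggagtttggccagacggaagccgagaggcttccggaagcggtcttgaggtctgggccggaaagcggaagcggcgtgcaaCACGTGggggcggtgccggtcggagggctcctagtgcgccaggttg
TRMT5: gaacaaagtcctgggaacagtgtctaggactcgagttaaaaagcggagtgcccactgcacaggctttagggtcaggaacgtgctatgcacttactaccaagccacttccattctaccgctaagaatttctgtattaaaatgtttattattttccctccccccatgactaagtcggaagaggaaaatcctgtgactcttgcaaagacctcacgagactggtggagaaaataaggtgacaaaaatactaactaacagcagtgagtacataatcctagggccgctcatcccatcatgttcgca
PUS3: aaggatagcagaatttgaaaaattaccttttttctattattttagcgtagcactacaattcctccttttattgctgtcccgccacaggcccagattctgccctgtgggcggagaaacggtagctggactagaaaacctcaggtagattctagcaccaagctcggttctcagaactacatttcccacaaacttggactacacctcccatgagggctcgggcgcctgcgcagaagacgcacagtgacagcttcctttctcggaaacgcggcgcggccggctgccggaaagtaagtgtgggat
CACGTG began at position 33 after the start of TRMT61A and at position 5 after that of TRMT6, counting the first transcribed base as 1, and did not occur in the TRMT5 and PUS3 windows. It was found for 4 of the 27 members with a window (14.8%), PUS7, QTRT1, TRMT6 and TRMT61A, and in 7.26% of all 35116 windows. Of these 4 genes, PUS7 and QTRT1 were not called with ACBI-1 in either line. Among other motifs searched on both strands, the GC box GGGCGG was in 17 member windows and 45% of all, CCAAT in 9 and 34.6%, and the TATA box TATAAA in 0 and 11.5%. The ETS motif CCGGAAG was in 9 member windows and 10.3% of all, and GGAAGTG, which overlaps it, in 5 and 11.2%. TGCGCA was in 4 and 8.24%, GATTGG, which holds the complement of CCAAT, in 4 and 15.1%, and the cyclic AMP element TGACGTCA in 3 and 1.85%. TTTCGCG was in 1 member window and 1.32% of all, while CGCATGCG (2.02% of all) and the RUNX motif TGTGGTTT (1.53% of all) were in 0. A member was counted once if any window of it matched, whereas the shares of all count single windows, so the units may differ. A match describes letters in a window and not a bound site.

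TRMT5 (ENSG00000126814) encodes the enzyme that sets 1-methylguanosine beside the anticodon, a mark that keeps the reading frame and starts wybutosine synthesis. It had 429 and 454 reads with ACBI-1 against 309 and 334 reads with DMSO in DND-41, and 398 and 420 reads with ACBI-1 against 302 and 308 reads with DMSO in MOLT-4. All treated libraries lay above all DMSO libraries, across both lines. TRMT5 rose by 0.45 ± 0.10 on the log2 scale in DND-41 (edgeR, adjusted p = 0.00239) and by 0.39 ± 0.10 in MOLT-4 (adjusted p = 0.00837). In DND-41 the call was lost without ACBI-1 replicate 1, ACBI-1 replicate 2 or DMSO replicate 1, with values of 0.38 to 0.51. In MOLT-4 it was lost without either ACBI-1 library, with values of 0.35 to 0.45, and with DESeq2 (adjusted p = 0.105). SLC38A6 overlaps 4.3% of the TRMT5 exon bases on the other strand.

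METTL1 and WDR4 form the enzyme of 7-methylguanosine in the variable loop, METTL1 as the catalytic and WDR4 as the scaffolding subunit. METTL1 (ENSG00000037897) had 551 and 652 reads with ACBI-1 against 468 and 490 reads with DMSO in DND-41, and 592 and 523 reads against 444 and 409 reads in MOLT-4. It was higher in every treated library of its line, with a log2 fold change of 0.32 ± 0.09 in DND-41 (edgeR, adjusted p = 0.0214) and 0.36 ± 0.09 in MOLT-4 (adjusted p = 0.00947). WDR4 had 791 and 781 reads with ACBI-1 against 724 and 753 reads with DMSO in DND-41, and 826 and 802 reads against 819 and 762 reads in MOLT-4. WDR4 was not called, at 0.08 ± 0.08 in DND-41 (95% interval -0.08 to 0.24) and 0.01 ± 0.08 in MOLT-4 (-0.14 to 0.17). The METTL1 calls were lost with DESeq2 (adjusted p = 0.182 in DND-41 and 0.0973 in MOLT-4). They were also lost without either DMSO library in DND-41 and without DMSO replicate 2 in MOLT-4. Values without 1 library were 0.21 to 0.42 in DND-41 and 0.28 to 0.44 in MOLT-4. EEF1AKMT3 covers 19.3% of the METTL1 exon bases on the other strand and CYP27B1 covers 4.08% on the same strand, so some METTL1 reads could belong to them.

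Among the other methyltransferases of tRNA bases, TRMT1, TRMT1L, TRMT2A, TRMT2B, TRMT10A, TRMT10B, TRMT10C, TRMT11, NSUN2 and TRDMT1 were not called in either line. NSUN2, which makes 5-methylcytosine in many tRNAs, had 0.03 ± 0.07 in DND-41 and 0.02 ± 0.07 in MOLT-4. TRDMT1 (DNMT2), which methylates a cytosine of tRNA-Asp, had 397 and 353 reads with ACBI-1 against 332 and 346 reads with DMSO in DND-41. In MOLT-4 TRDMT1 had 381 and 378 reads with ACBI-1 against 410 and 419 reads with DMSO. It lay above DMSO in DND-41 (0.14 ± 0.10) and below it in MOLT-4 (-0.16 ± 0.09), and the difference of 0.27 ± 0.14 was not called (edgeR, adjusted p = 0.685). Of the 4 ribose methyltransferases, TRMT13, TRMT44, FTSJ1 and TARBP1, none was called in either line. FTSJ1, which methylates riboses of the anticodon loop, had 0.0068 ± 0.07 in DND-41, where its CPM, scaled over all 8 libraries, was 90.8 and 90.6 with ACBI-1 and 91.2 and 91.3 with DMSO. No direction is therefore given for it in DND-41, and in MOLT-4 it had 0.12 ± 0.07.

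PUS3 (ENSG00000110060) makes pseudouridine in the anticodon arm. It had 322 and 276 reads with ACBI-1 against 207 and 250 reads with DMSO in DND-41, and 326 and 336 reads with ACBI-1 against 231 and 233 reads with DMSO in MOLT-4. The groups did not overlap in either line, though the DND-41 replicates were farther apart. PUS3 rose by 0.38 ± 0.12 in DND-41 (edgeR, adjusted p = 0.0414) and by 0.48 ± 0.11 in MOLT-4 (adjusted p = 0.00298). The call was lost with DESeq2 in both lines (adjusted p = 0.304 in DND-41 and 0.0559 in MOLT-4), and in DND-41 also in a fit of all 8 libraries (0.36, adjusted p = 0.0525). It was also lost without DMSO replicate 1 in DND-41. Values without 1 library were 0.24 to 0.52 in DND-41 and 0.46 to 0.52 in MOLT-4. PUS1 and PUS7, pseudouridine synthases with wider sets of targets, were not called: PUS1 had -0.02 ± 0.08 in DND-41 and -0.18 ± 0.08 in MOLT-4, and PUS7 had 0.10 ± 0.09 in DND-41 and 0.21 ± 0.09 in MOLT-4.

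ADAT1 and ADAT2 are adenosine deaminases. ADAT1 makes an inosine next to the anticodon of tRNA-Ala, and ADAT2, with the catalytically inactive ADAT3, makes the wobble inosine. ADAT2 (ENSG00000189007) had 547 and 463 reads with ACBI-1 against 419 and 383 reads with DMSO in DND-41, and 427 and 414 reads against 341 and 351 reads in MOLT-4. ADAT1 (ENSG00000065457) had 1075 and 1007 reads with ACBI-1 against 883 and 898 reads with DMSO in DND-41, and 888 and 843 reads against 675 and 662 reads in MOLT-4. For both genes every treated library lay above the DMSO libraries of its line. ADAT2 rose in DND-41 (0.32 ± 0.10, edgeR adjusted p = 0.0338) and had 0.25 ± 0.09 in MOLT-4 (adjusted p = 0.0934). ADAT1 rose in MOLT-4 (0.34 ± 0.08, adjusted p = 0.00279) and had 0.22 ± 0.08 in DND-41 (adjusted p = 0.0749). The difference between responses was 0.05 ± 0.14 for ADAT2 (adjusted p = 0.992) and -0.15 ± 0.11 for ADAT1 (adjusted p = 0.829), so neither was shown to differ between the lines. The ADAT2 call was lost with DESeq2 (adjusted p = 0.246) and without either DMSO library of DND-41 (0.18 to 0.46 without 1 library). The ADAT1 call held with DESeq2. Without 1 library ADAT1 had values of 0.32 to 0.38 in MOLT-4. ADAT3 had -0.11 ± 0.14 in DND-41 and -0.08 ± 0.17 in MOLT-4 and was not called.

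Of 5 genes for the wobble uridine, CTU2 was called higher and TRMU lower in MOLT-4, and none was called in DND-41. CTU2 (ENSG00000174177) pairs with CTU1 to put sulphur on cytosolic wobble uridines. It had 927 and 1060 reads with ACBI-1 against 832 and 876 reads with DMSO in DND-41 (0.21 ± 0.08, edgeR adjusted p = 0.098). In MOLT-4 it had 1004 and 919 reads with ACBI-1 against 815 and 796 reads with DMSO (0.23 ± 0.07, adjusted p = 0.0485). TRMU (ENSG00000100416) does the same for mitochondrial tRNAs, and it had fewer reads with ACBI-1 in both lines. TRMU had 1109 and 1153 reads with ACBI-1 against 1253 and 1345 reads with DMSO in DND-41 (-0.21 ± 0.07, adjusted p = 0.0701). In MOLT-4 TRMU had 1168 and 1117 reads with ACBI-1 against 1345 and 1273 reads with DMSO (-0.23 ± 0.07, adjusted p = 0.0321). Its groups did not overlap in either line, and the difference between the responses was -0.0083 ± 0.10. The TRMU call in MOLT-4 was lost with DESeq2 (adjusted p = 0.202), with scaling by total counts (adjusted p = 0.0875) and in a fit of all 8 libraries (adjusted p = 0.0506), a fit that called TRMU lower in DND-41 (-0.22, adjusted p = 0.0417). It was also lost without DMSO replicate 1 (-0.26 to -0.18 without 1 library). The difference between the CTU2 responses was -0.04 ± 0.11 (adjusted p = 0.988). Its call was lost with DESeq2 (adjusted p = 0.238), in that 8-library fit (adjusted p = 0.0579) and without either DMSO library of MOLT-4 (0.18 to 0.29 without 1 library). CTU1 had 0.13 ± 0.09 in DND-41 and 0.13 ± 0.10 in MOLT-4, and ELP3, the catalytic subunit of Elongator, had 0.12 ± 0.09 in DND-41 and 0.18 ± 0.08 in MOLT-4, none of them called.

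**Figure D3:**
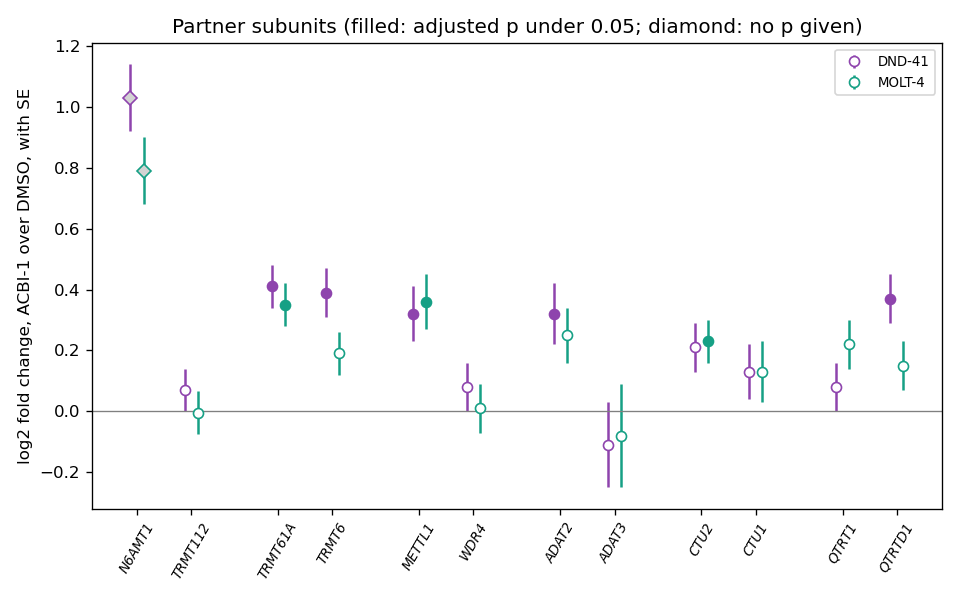
Log2 fold change of ACBI-1 over DMSO (vertical axis), with its SE, for 6 pairs of partner subunits in DND-41 and MOLT-4. Filled points passed an adjusted p of 0.05 (edgeR) and diamonds mark N6AMT1, for which no p is given; TRMT61A and TRMT6 were both called in DND-41, whereas the partners TRMT112, WDR4, ADAT3 and CTU1 have open points in both lines.

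Among these pairs of subunits both genes were called only for TRMT61A and TRMT6, in DND-41. Queuosine is inserted at the wobble position by QTRT1 and QTRTD1 (QTRT2) as a pair. QTRTD1 had 764 and 764 reads with ACBI-1 against 605 and 566 reads with DMSO in DND-41, and it rose (0.37 ± 0.08, edgeR adjusted p = 0.00231). In MOLT-4 QTRTD1 had 0.15 ± 0.08 (adjusted p = 0.229). QTRT1 had 0.08 ± 0.08 in DND-41 and 0.22 ± 0.08 in MOLT-4 (adjusted p = 0.0996), not called. The difference between the genes of a pair was not tested.

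The 23 tested members called in neither line had log2 fold changes of -0.13 (TRMT11) to 0.26 (TRMT61B) in DND-41, and their 95% intervals reached from -0.47 to 0.52. The 24 such members in MOLT-4 lay between -0.23 (TRMT11) and 0.27 (TRMT10A), with intervals reaching from -0.84 to 0.62. No member was called for a difference between the responses of the lines (edgeR, 0 of 34, and 0 at an unadjusted p under 0.05; DESeq2 called 0), beside 0.641% of 15604 genes. That comparison shares all its libraries with the comparisons within each line.

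Among 62 other tested genes of tRNA modification, QTRTD1 was called higher in DND-41 and RPUSD1 and THG1L lower, and in MOLT-4 0 were called (edgeR, 7 at an unadjusted p under 0.05; DESeq2 called 0). RPUSD1, a pseudouridine synthase-like gene, had 1559 and 1671 reads with ACBI-1 against 1963 and 1948 reads with DMSO in DND-41 (-0.29 ± 0.07, edgeR adjusted p = 0.00506). THG1L, which adds a guanosine to the 5′ end of tRNA-His, had 42 and 62 reads with ACBI-1 against 80 and 100 reads with DMSO (-0.80 ± 0.22, adjusted p = 0.013). The shares called were 1.61% higher and 3.23% lower in DND-41, beside 3.78% and 6.05% of all genes, and the median of the list was 0.08 in each line. Values lay above 0 for 66.1% of that list in DND-41 and 75.8% in MOLT-4. For the aminoacyl-tRNA synthetases described next the shares above 0 were 60% in DND-41 and 90% in MOLT-4. Of 20 cytosolic aminoacyl-tRNA synthetases, the enzymes that load tRNAs with amino acids, EPRS rose in DND-41 (0.26 ± 0.07, adjusted p = 0.0082; 3.78% of all genes were higher), and 0 were called in MOLT-4 (edgeR, 2 at an unadjusted p under 0.05; DESeq2 called 0). Of the genes for RNA polymerase III and tRNA processing, 4 of 41 rose in DND-41 and 3 of 42 in MOLT-4, and 0 fell, beside 3.78% of all genes higher and 6.05% lower in DND-41 and 3.9% and 6.94% in MOLT-4. POP1, the large protein subunit of RNase P, was called in both lines (0.40 ± 0.09 in DND-41, adjusted p = 0.00391, and 0.29 ± 0.09 in MOLT-4, adjusted p = 0.0327). RPP40, another RNase P subunit, rose in MOLT-4 (0.47 ± 0.12, adjusted p = 0.0107). DESeq2 called 0 of the polymerase III and processing genes in either line.

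Between the lines in DMSO, 14 of 33 members, N6AMT1 left out, were higher in DND-41 and 6 lower, beside 31.6% of all genes higher and 32.8% lower (64.4% called in all). The median difference of the members (DND-41 over MOLT-4) was 0.14, against -0.0062 for all genes. These values use the same DMSO libraries as the comparisons with ACBI-1. TRMT12 (ENSG00000183665), the TYW2 enzyme that carries wybutosine synthesis on after TRMT5, was almost absent from DND-41. It had 1 and 1 reads with ACBI-1 and 0 and 2 reads with DMSO in DND-41, against 235 and 206 reads with ACBI-1 and 203 and 221 reads with DMSO in MOLT-4. Over the DMSO libraries the reads in DND-41 were 2 against 424 in MOLT-4, or 0.452% (exact 95% interval 0.0546% to 1.64%, counting error only). The 2 DMSO reads in DND-41 came from replicate 2, the library with 0.763% of the MOLT-4 marker level, and their source was not tested. TRMT12 was too low to be tested for ACBI-1 in DND-41, and in MOLT-4 it had 0.03 ± 0.12 (edgeR, adjusted p = 0.936). In bulk RNA, fewer cells with a transcript and less of it per cell cannot be told apart.

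The nearest protein-coding gene on each side of TRMT12, RNF139 and TMEM65, was read in DND-41. RNF139 had 313 and 315 reads with ACBI-1 and 335 and 334 reads with DMSO in DND-41, against 460 and 489 reads with ACBI-1 and 499 and 492 reads with DMSO in MOLT-4. RNF139 was lower in DND-41 in DMSO (-0.63 ± 0.09, edgeR adjusted p = 1.01e-06). TMEM65, on the other side, was higher there (1.98 ± 0.15, adjusted p = 3.35e-12). Other genes of the wybutosine pathway were read in both lines as well. LCMT2 (TYW4), which works on the product of TYW3, had 723 and 730 reads in DMSO in DND-41 and 454 and 473 reads in MOLT-4 (0.59 ± 0.08, adjusted p = 5.24e-07). TYW1 had 450 and 472 reads in DMSO in DND-41 and 403 and 431 reads in MOLT-4 (0.08 ± 0.09, adjusted p = 0.435).

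**Figure D4:**
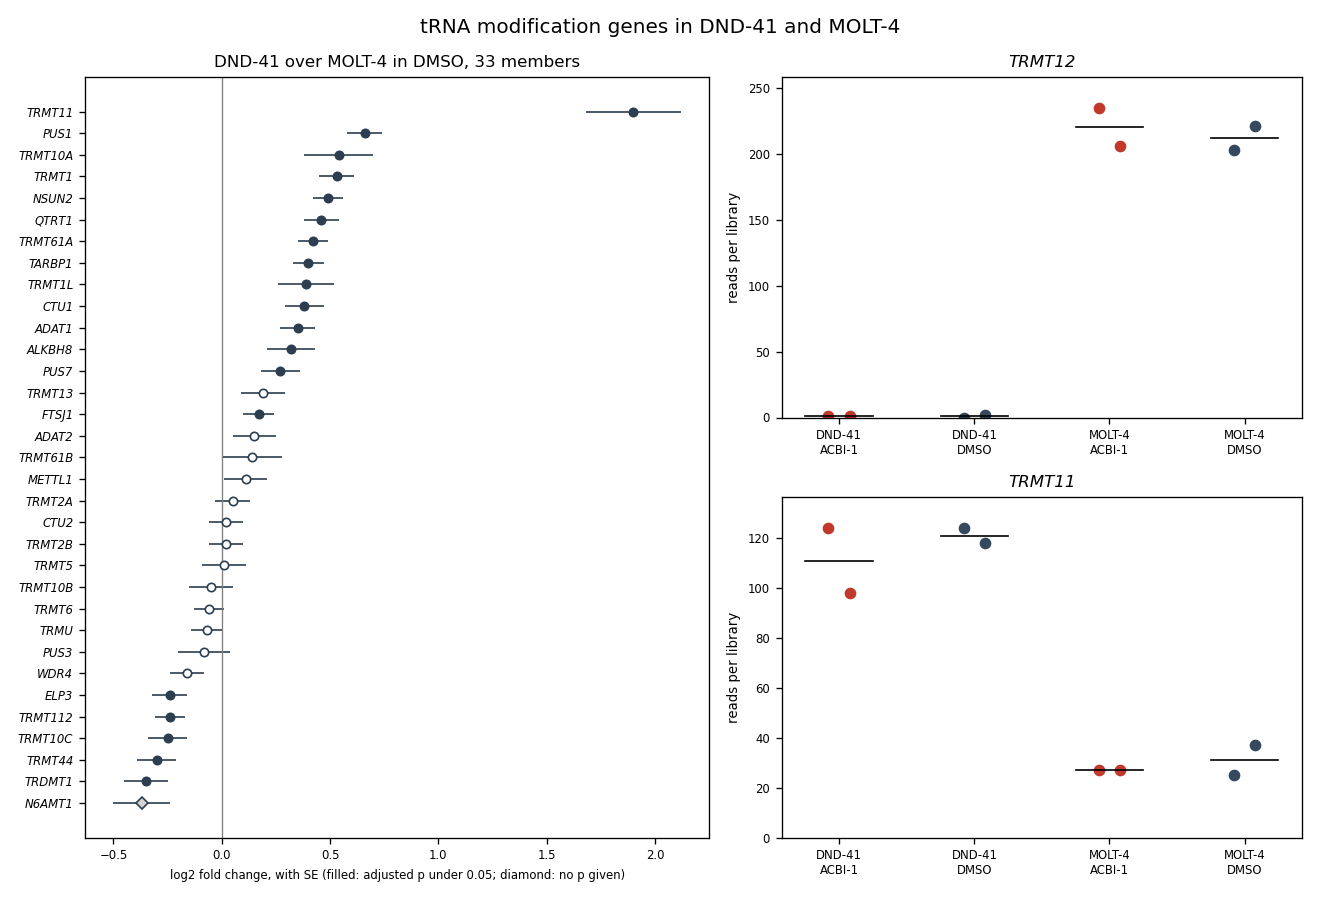
Left, log2 fold change of DND-41 over MOLT-4 in DMSO (horizontal axis), with its SE, for the members other than TRMT12; filled points passed an adjusted p of 0.05 (edgeR) and the diamond is N6AMT1. Right, reads per library of TRMT12 and TRMT11 in the 4 groups, with group means as lines; TRMT12 has at most 2 reads in any DND-41 library, and TRMT11 has more reads in DND-41.

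TRMT11 (ENSG00000066651), which methylates a guanosine of the tRNA body together with TRMT112, was the reverse case. It had 124 and 98 reads with ACBI-1 and 124 and 118 reads with DMSO in DND-41, against 27 and 27 reads with ACBI-1 and 25 and 37 reads with DMSO in MOLT-4. It was 3.73-fold higher in DND-41 in DMSO (log2 1.90 ± 0.22, edgeR adjusted p = 1.34e-08). Its nearest protein-coding neighbour on each side did not pass the test: HINT3 had 0.22 ± 0.11 (adjusted p = 0.074) and CENPW had -0.13 ± 0.12 (adjusted p = 0.337).

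PUS1, which modifies cytosolic and mitochondrial tRNAs, had 1049 and 1097 reads in DMSO in DND-41 against 670 and 632 reads in MOLT-4 (0.66 ± 0.08, edgeR adjusted p = 2.69e-08). TRMT1, the enzyme of dimethylguanosine, had 1466 and 1578 reads in DND-41 against 1020 and 1006 reads in MOLT-4 (0.53 ± 0.08, adjusted p = 6.75e-07). NSUN2 had 2531 and 2645 reads in DND-41 against 1851 and 1689 reads in MOLT-4 (0.49 ± 0.07, adjusted p = 5.38e-07). These groups did not overlap. QTRT1 had 720 and 815 reads in DND-41 against 548 and 521 reads in MOLT-4 (0.46 ± 0.08, adjusted p = 2.54e-05). TRMT61A, described above for its response, was also higher in DND-41 in DMSO (0.42 ± 0.07, adjusted p = 1.34e-05), while its partner TRMT6 had -0.06 ± 0.07 (adjusted p = 0.516). TRMT10A had 159 and 133 reads in DND-41 against 100 and 93 reads in MOLT-4 (0.54 ± 0.16, adjusted p = 0.00588), a call lost with DESeq2 (adjusted p = 0.0703), without DND-41 DMSO replicate 1 (0.41) and without MOLT-4 DMSO replicate 2 (0.45). The members lower in DND-41 were, besides TRMT12, TRDMT1 (-0.35 ± 0.10), TRMT44 (-0.30 ± 0.09), TRMT10C (-0.25 ± 0.09), TRMT112 (-0.24 ± 0.07) and ELP3 (-0.24 ± 0.08), with N6AMT1 at -0.37 ± 0.13.

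Levels of different genes were compared per length, as RPKM (CPM divided by the length of a gene's exons in kilobases), with lengths from GENCODE release 29, an annotation of GRCh38, whereas the counts were made on hg19 with an annotation not used here, so the values and ranks are approximate. TRMT112 was the highest member in all 4 groups, at 44.5 RPKM with ACBI-1 and 42.8 RPKM with DMSO in DND-41, and at 50.7 RPKM with ACBI-1 and 50.5 RPKM with DMSO in MOLT-4. FTSJ1 followed at 31.6 RPKM with ACBI-1 and 31.8 RPKM with DMSO in DND-41, and at 30.9 RPKM with ACBI-1 and 28.3 RPKM with DMSO in MOLT-4. N6AMT1 was among the lower members, at 4.16 RPKM with ACBI-1 and 2.06 RPKM with DMSO in DND-41, ranks 26 and 30 of 34. In MOLT-4 it had 4.64 RPKM with ACBI-1 and 2.67 RPKM with DMSO, ranks 24 and 29. The partner TRMT112 therefore stood well above N6AMT1 in each group. TRMT12 was the lowest member in DND-41 (0.0213 RPKM with DMSO) and TRMT11 in MOLT-4 (0.277 RPKM with DMSO).

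In the authors' deposited table for DND-41, 3 members passed an adjusted p of 0.05, N6AMT1, TRMT61A and TRMT6, with log2 fold changes of 1.03, 0.41 and 0.39. In the authors' deposited table for MOLT-4, 3 members passed as well, N6AMT1, TRMT61A and ADAT1, with values of -0.79, -0.36 and -0.35. The headers do not state the direction, and against the counts the sign of the authors' deposited table for MOLT-4 ran as DMSO over ACBI-1.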

How the data were processed

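The labels' protocols describe paired-end, strand-specific sequencing of total RNA. The authors deposited raw read counts per gene, 1 table per line, and every sample column was matched to the labels. The authors also deposited tables of log2 fold changes, a p-value and adjusted p-value per gene, a test statistic (a score) and a mean normalized signal, per the file headers. The submitters' processing notes name hg19, DESeq2 1.12.4, STAR 2.5.2a and featureCounts. The annotation and the strand setting were not given in the sources used here. Nothing says that replicates were separate cultures, so the spread behind a p-value may be technical only.

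The test on counts was the quasi-likelihood test of edgeR 4.0.16 (with limma 3.58.1 under R 4.3.3) after TMM scaling and filterByExpr, with Benjamini-Hochberg adjustment over all genes tested and a threshold of 0.05. Each line was fitted on its 4 libraries; the comparison of lines in DMSO and the difference between responses came from 1 fit of all 8. Fits were tested on simulated data. With 2 libraries a group an exact permutation test cannot give a p below 0.333, so none was used. CPM and RPKM used TMM-scaled library sizes. Alternatives were DESeq2 1.42.0, its size factors within edgeR, total counts, no filter, a threshold of 1%, the replicate number as a block, other sets of libraries and leaving out each library. The members and lists were chosen with earlier results of these data known. Given in full were the members called with ACBI-1 in either line, the 8 called members that differed most between lines in DMSO, and members failing the filter; up to 4 called genes were taken from other lists, and partners and neighbours were added.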

Additional observations from a re-analysis of the deposited data

How the results depend on the processing

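Of the values for single genes under alternatives, 406 kept their direction and, N6AMT1 aside, their side of the threshold. A call was lost for 69 and gained for 5. The other 25 changed sign, none of them called in either fit. A value of N6AMT1, for which no p is used, was counted as kept if it moved by less than the SD between replicates. With a library left out, TRMT12 in MOLT-4 ranged from -0.06 to 0.12, and the difference between responses from -0.09 to 0.18 for ADAT2, -0.13 to 0.04 for CTU2, -0.17 to 0.05 for METTL1, -0.27 to 0.02 for PUS3, -0.98 to 3.09 for TRMT12, -0.03 to 0.11 for TRMT5, -0.03 to 0.17 for TRMT61A and -0.07 to 0.06 for TRMU. For TRMU it was also 0.01 with DESeq2, with its size factors and with no filter. Members called in DND-41 (7 with N6AMT1) were 4 with DESeq2, 0 with no filter on low counts (13 at an unadjusted p under 0.05), 4 at the threshold of 1% and 0 to 5 when a library was left out. Members called in MOLT-4 (8 with N6AMT1) were 3 with DESeq2, 0 with no filter (13 at an unadjusted p under 0.05) and 0 to 6 when a library was left out. For the difference between responses the count was 0 under every alternative, and between lines in DMSO it was 15 to 22. Over all genes DESeq2 called 612 in DND-41 and 689 in MOLT-4, against 1378 and 1568. With no filter 2 genes were called in DND-41, 39 in MOLT-4 and 13 for the difference (100). At 1% the counts were 763, 879 and 50. Leaving out a library gave 3 to 632 in DND-41, 0 to 1430 in MOLT-4 and 49 to 138 for the difference. Replicate numbers were not shown to pair the libraries (correlation over genes of the deviations of same-numbered libraries 0.039 for DND-41 and 0.044 for MOLT-4); with the replicate number as a block 11 members were called in DND-41 and 10 in MOLT-4, and 2230, 2228 and 302 of all genes for the 2 lines and the difference. TRMT11 in MOLT-4, with at most 37 reads per library, had the widest interval of the members tested for ACBI-1.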

Other observations

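The cytosolic aminoacyl-tRNA synthetases, which load tRNAs with their amino acids, were mostly higher in DND-41 in DMSO. Of 20 genes 15 were higher in DND-41 and 2 lower, with a median log2 difference of 0.61, beside 31.6% and 32.8% of all genes. NARS, for asparagine, had 3536 and 3674 reads in DND-41 against 1481 and 1513 reads in MOLT-4 (1.21 ± 0.06, edgeR adjusted p = 1.25e-15). WARS, for tryptophan, had 3766 and 3967 reads in DND-41 against 1647 and 1468 reads in MOLT-4 (1.25 ± 0.07, adjusted p = 7.74e-15). MARS (0.91 ± 0.06) and YARS (0.87 ± 0.06) were higher as well.

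Of 42 genes for RNA polymerase III and tRNA processing, 14 were higher in DND-41 in DMSO (33.3%) and 9 lower (21.4%), beside 31.6% and 32.8% of all genes, so the share higher was near that of all genes. XPOT, the export receptor of tRNAs, had 5954 and 5767 reads in DND-41 against 2395 and 2245 reads in MOLT-4 (1.28 ± 0.07, edgeR adjusted p = 8.53e-16). RPP25, a subunit of RNase P and RNase MRP, had 0 and 1 reads in DND-41 against 103 and 115 reads in MOLT-4, and 0 and 0 reads with ACBI-1 in DND-41 against 116 and 99 reads with ACBI-1 in MOLT-4.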
